A study of Rattus norvegicus with 60 samples.

Results

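The striatum of congenic NP.P rats was compared with the striatum of NP rats, across all transcripts with signal on oligonucleotide arrays. The comparison took every array whose label names the striatum, 12 of the 60 arrays of the series, with 6 congenic and 6 NP animals and 1 array per animal. The animals were adult rats housed in pairs and used to handling, and the labels' protocols name no alcohol exposure, drug or surgery. NP rats were bred for low alcohol preference. The labels call the other group only the congenic strain. From knowledge of the study, its rats carry a stretch of chromosome 4 taken from the P line, which prefers alcohol, on the NP background. Genes of that stretch differ between the lines together, and their parts cannot be told apart. The series title asks which genes are candidates for alcohol preference.

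The striatum is the input station of the basal ganglia. Most of its neurons are medium spiny neurons, inhibitory projection cells that receive glutamate from cortex and dopamine from the midbrain, and that carry either the D1 or the D2 dopamine receptor. It takes part in the shift from goal-directed to habitual alcohol drinking in rodents. A congenic strain isolates a stretch of 1 chromosome on another strain's background, so the lines share the rest of the genome by design.

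The arrays carried markers of the main neurons of the labelled tissue. Of 20 measured marker genes of medium spiny neurons, 17 had a higher mean in striatum than in each of the other 4 regions, among them Drd1, Drd2, Penk, which encodes enkephalin, and Ppp1r1b, which encodes the phosphatase inhibitor DARPP-32. The 3 exceptions were Bcl11b, Pdyn and Rarb, which were higher in accumbens. The median level of 13 cortical excitatory neuron markers was 10.77 log2 units in striatum, near the 10.93 of frontal cortex. It was lower in hippocampus (10.48), amygdala (10.35) and accumbens (9.94). Whether cortex entered the striatum samples was not tested. The 12 array medians lay between 8.30 and 8.32 log2 units. The array of congenic animal 4 had a median correlation of 0.988 with the other striatum arrays, against 0.992 to 0.994 for the other 11, and limma's array weighting gave it 0.349, the lowest of the 12 weights. In bulk tissue, fewer cells of a type and less RNA per cell cannot be told apart.

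A probe set is the group of probes that reads 1 transcript. It entered the test when its mean over all arrays reached 7.68 log2 units, which 18625 did. The threshold for a call was an adjusted p under 0.05 (limma with Benjamini-Hochberg adjustment over all 18625). In striatum 12 probe sets were called, 0.0644% of those tested, with 6 higher and 6 lower in congenic rats (0.0322% each). The 6 with a gene name were 0.0428% of the 14030 with 1 symbol and belong to 5 genes. On these probe sets Ppm1k and Creb5 were lower, while Snx10, Dgki and Akr1b1 were higher. All 5 lie on chromosome 4. The other 6 carry no single gene symbol in the probe table used. In the plot of the difference against its p, 2 unnamed called probe sets lie farthest out. A call is a cut on p, and no gap lay at the cut. The last called probe set had an unadjusted limma p of 1.70e-05, and the first not called, of Hnrnpa2b1, had 4.29e-05.

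**Figure D1:**
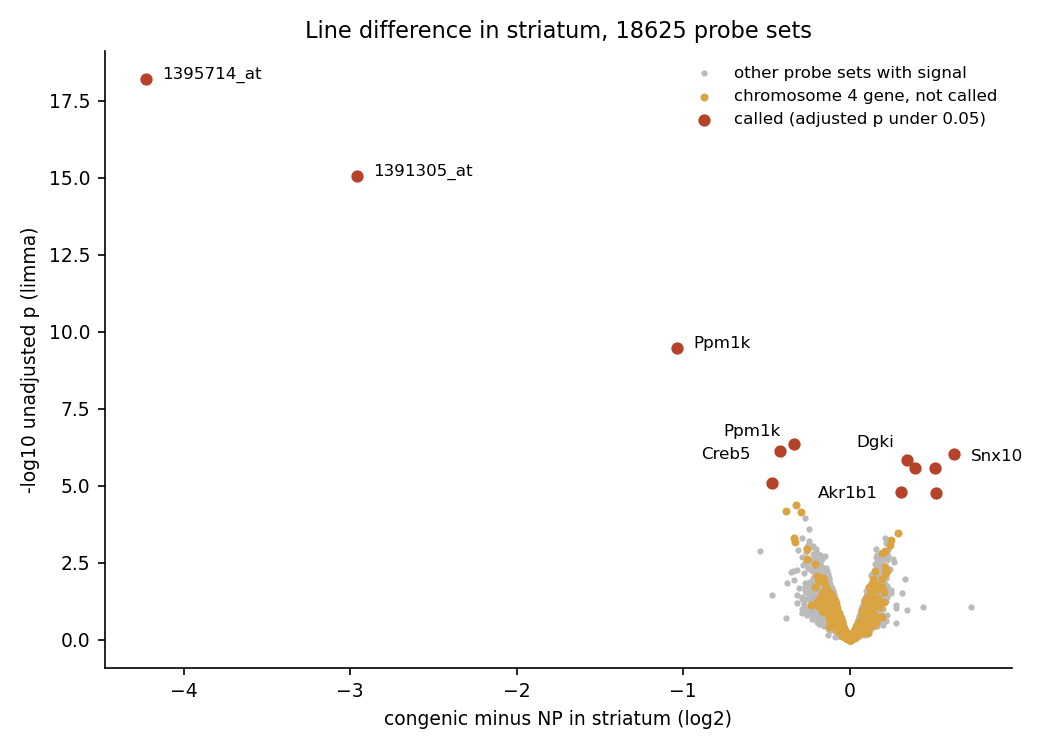
Difference between the lines in striatum (congenic minus NP, log2 units) against the negative log10 of the unadjusted limma p, with 1 point per probe set for 18625 probe sets. The 12 called probe sets are red, and the 2 at the far left, 1395714_at at -4.23 and 1391305_at at -2.96, have no gene name; other chromosome 4 genes are yellow.

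Of the 5 genes, the RefSeq table of rat promoters (assembly GRCr8) holds Snx10, Creb5 and Dgki. Their 300 bases run from 250 before to 50 after the gene's start. They are shown because the genes lie on 1 chromosome and the called probe sets of these genes differed in direction. Capitals mark the motifs searched on both strands: the cyclic AMP response element TGACGTCA, its half-site TGACG, the GC box GGGCGG, the CCAAT box CCAAT and the TATA motif TATAAA. The half-site is part of the full element.
Snx10, chr4:81943073-81943372, plus strand: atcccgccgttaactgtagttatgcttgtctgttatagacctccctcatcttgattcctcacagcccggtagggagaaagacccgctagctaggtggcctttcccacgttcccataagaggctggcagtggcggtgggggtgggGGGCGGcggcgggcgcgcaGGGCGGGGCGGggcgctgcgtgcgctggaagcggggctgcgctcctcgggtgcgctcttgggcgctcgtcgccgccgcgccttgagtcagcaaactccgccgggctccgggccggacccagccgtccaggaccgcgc
Creb5, chr4:83723975-83724274, plus strand: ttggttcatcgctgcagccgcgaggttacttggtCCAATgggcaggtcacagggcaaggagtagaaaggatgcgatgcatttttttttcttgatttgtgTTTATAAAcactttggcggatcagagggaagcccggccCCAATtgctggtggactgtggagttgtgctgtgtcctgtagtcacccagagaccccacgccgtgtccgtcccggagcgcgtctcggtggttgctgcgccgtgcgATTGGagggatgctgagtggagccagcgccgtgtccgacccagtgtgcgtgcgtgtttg
Dgki, chr4:66839741-66840040, minus strand: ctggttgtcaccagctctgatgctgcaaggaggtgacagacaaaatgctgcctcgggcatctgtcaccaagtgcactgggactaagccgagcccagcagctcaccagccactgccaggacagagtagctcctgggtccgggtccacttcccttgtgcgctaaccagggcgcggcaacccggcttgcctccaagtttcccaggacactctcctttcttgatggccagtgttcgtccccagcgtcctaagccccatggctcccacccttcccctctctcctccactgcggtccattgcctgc

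The Snx10 window held 3 GC boxes, a motif present in 33.1% of the 33469 promoters of the table. The Creb5 window held 3 CCAAT boxes, found at least once in 37.5% of promoters, and 2 overlapping TATA matches on opposite strands, found in 14.2%. None of the letters searched occurred in the Dgki window. The cyclic AMP response element, in 1.83% of promoters, and its half-site, in 21.2%, occurred in none of the 3 windows. These matches describe letters only.

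Ppm1k was the named gene with the largest difference. It encodes a mitochondrial phosphatase that removes an inhibitory phosphate from the branched-chain ketoacid dehydrogenase and so switches on the breakdown of leucine, isoleucine and valine. On probe set 1394939_at the 6 congenic animals lay between 7.70 and 8.09 log2 units (median 8.00), and the 6 NP animals lay between 8.68 and 9.17 (median 9.04). No congenic animal reached the lowest NP animal. The signal fell by 1.04 ± 0.08 on the log2 scale (SE, 2.05-fold lower, adjusted p = 2.17e-06).

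A second Ppm1k probe set, 1388778_at, gave a brighter signal and a smaller difference. Its congenic values lay within 10.16 to 10.22 and its NP values within 10.46 to 10.63, again without overlap. It fell by 0.34 ± 0.04 (SE, 1.26-fold lower, adjusted p = 0.00206). The 2 probe sets thus placed the same gene at different sizes of change, and the sources used here do not say which transcripts each one reads. For this and the other genes, the arrays give the signal of probes. Whether a difference in signal between the lines equals a difference in transcript amount was not tested.

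The other 22 measured genes of branched-chain amino acid breakdown included none that was called. Counting 1 probe set per gene, the list of 23 had a median difference of -0.03, against -0.01 over all 10378 genes, with 10 genes above 0 and 13 below. Without congenic animal 4 the median of the list was 0.02. Genes with an unadjusted p under 0.05 were 4 of 23, all lower in congenic rats, where 4.56% of all genes had such a p. Besides Ppm1k they were Dbt, which encodes the core subunit of the same dehydrogenase (-0.17, adjusted p = 0.974), Hibch (-0.13) and Mcee (-0.10), enzymes of later steps of the breakdown. Bckdk, the kinase that opposes Ppm1k, lay at -0.04 and the subunit genes Bckdha and Bckdhb at 0.00 and -0.02. For Dbt the congenic animals ranged from 8.98 to 9.38 and the NP animals from 9.27 to 9.40, so the lines overlapped. In the wider family of PP2C phosphatases, to which Ppm1k belongs, it was also the single called gene of 12.

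Creb5, a leucine zipper factor related to CREB, which mediates transcription in response to cyclic AMP, was lower in congenic striatum. On probe set 1379629_at the congenic animals ranged from 8.05 to 8.26 (median 8.15) and the NP animals from 8.41 to 8.66 (median 8.61). The groups did not overlap, and the value fell by 0.42 ± 0.05 (SE, 1.34-fold lower, adjusted p = 0.00269). A second probe set, 1378645_at, also separated the 6 congenic animals, at 7.81 to 8.02, from the 6 NP animals, at 8.07 to 8.54. Its difference of -0.38 ± 0.07 did not pass (adjusted p = 0.0857). The brightest Creb5 probe set, 1389761_at, lay at -0.01 (adjusted p = 0.996), so the 3 probe sets did not give 1 answer for the gene.

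No other factor of the CREB and ATF families was called. By the brightest probe set of each gene, 14 were measured with a median of -0.01, and 0 had an unadjusted p under 0.05. The smallest p in the list belonged to Crtc3, a coactivator of CREB, with a difference of 0.11.

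Snx10 encodes a sorting nexin, a protein of endosomal membrane traffic. On probe set 1379275_at the congenic animals ranged from 10.03 to 10.35 (median 10.20) and the NP animals from 9.18 to 9.81 (median 9.60). All 6 congenic values were above all 6 NP values, with the lowest NP animal well below the other 5. The signal was higher by 0.63 ± 0.08 log2 units (SE, 1.55-fold, adjusted p = 0.00298). The other Snx10 probe set, 1383585_s_at, went the other way. Its congenic animals lay between 11.23 and 11.74 and its NP animals between 11.59 and 11.98, with a difference of -0.34 ± 0.08 that was not called (adjusted p = 0.456). A direction for Snx10 as a gene is therefore tied to the probe set. Across 23 sorting nexins, by the brightest probe set, 8 lay above 0 and 15 below, with a median of -0.03 and none called.

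Dgki encodes diacylglycerol kinase iota, which turns the second messenger diacylglycerol into phosphatidic acid and so ends one branch of receptor signalling. Its 1 probe set with signal ranged from 9.95 to 10.16 in congenic animals (median 10.03) and from 9.60 to 9.78 in NP animals (median 9.71). There was no overlap, and Dgki was higher by 0.34 ± 0.05 log2 units (SE, 1.27-fold, adjusted p = 0.00378). Of 16 measured genes of diacylglycerol kinases and phosphoinositide turnover it was the single one with an unadjusted p under 0.05, a share near the 4.56% of all genes. The next smallest p were those of Prkcb, a protein kinase C (0.06), and Plcb4, a phospholipase C (-0.07).

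Akr1b1 encodes aldose reductase, which reduces glucose to sorbitol and also reduces aldehydes. Congenic animals lay between 11.22 and 11.47 (median 11.36) and NP animals between 10.99 and 11.14 (median 11.03), without overlap. Akr1b1 was higher by 0.31 ± 0.05 log2 units (SE, 1.24-fold, adjusted p = 0.0264). The call was lost in 8 of the 12 fits that left out 1 animal, with adjusted p up to 0.106 and a difference that stayed between 0.29 and 0.34.

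Its neighbour Akr1b10, an aldo-keto reductase of the same subfamily, lay at 0.16 on probe set 1382034_at (adjusted p = 0.988), with overlapping lines. A second Akr1b10 probe set, 1395190_at, fell below the signal limit and was not part of the test. Tested without the limit, it was higher by 0.47 ± 0.06 in congenic rats (SE, adjusted p = 0.00285), with a mean of 7.95 ± 0.10 in congenic and 7.48 ± 0.12 in NP rats (SD, n = 6 each). Whether probe sets of these related genes read each other's transcripts was not tested. In the list of 15 enzymes of ethanol and aldehyde metabolism, Akr1b1 was the single called gene. The unadjusted p was also under 0.05 for Akr1b10, for Acss1, which makes acetyl-CoA from acetate (-0.16), and for Cat, catalase (-0.12).

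**Figure D2:**
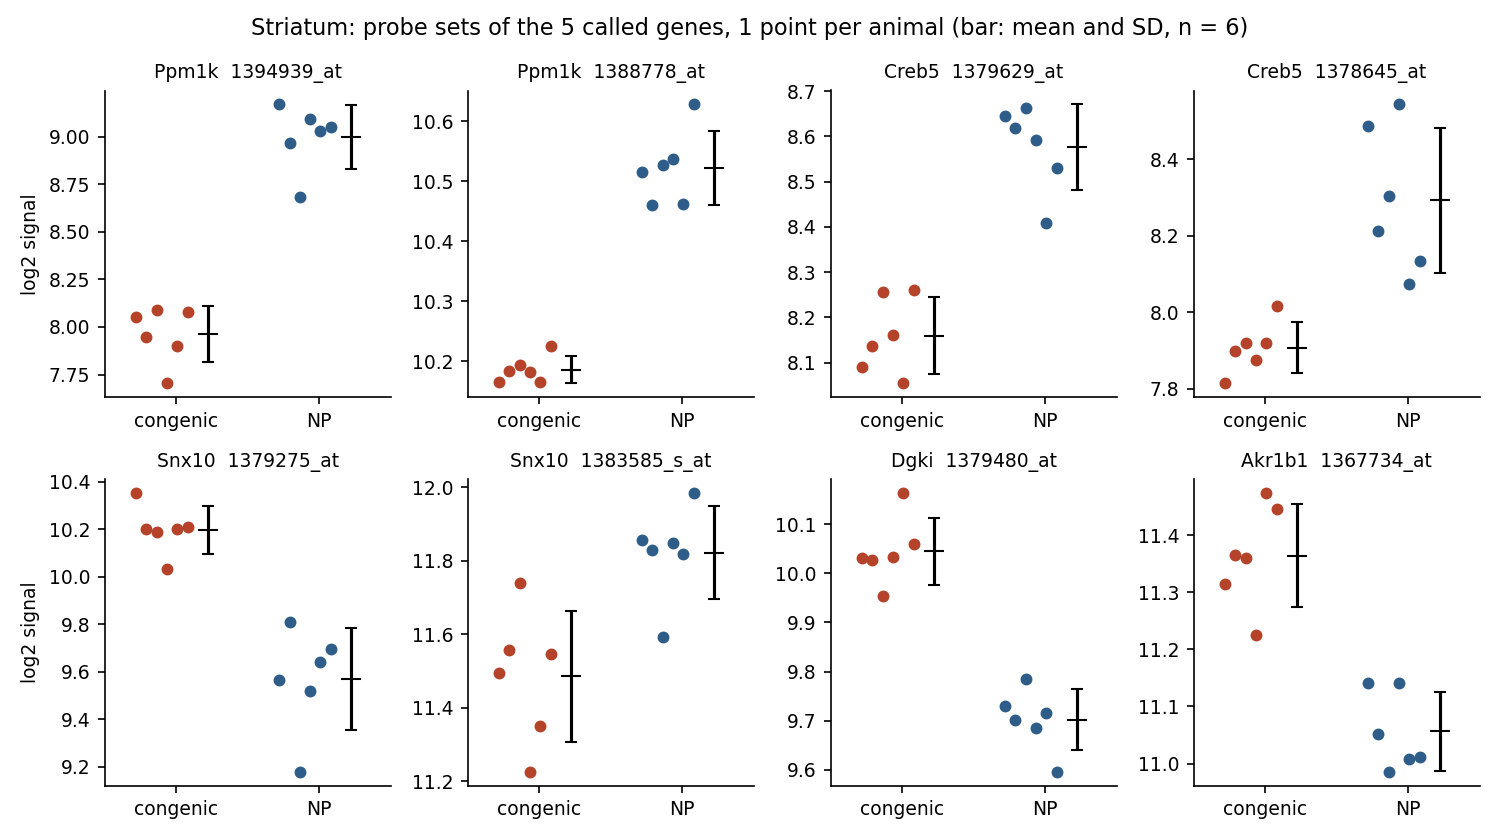
Log2 signal of each striatum animal for probe sets of the 5 called genes, chosen by a small unadjusted limma p (congenic red and NP blue, 6 points each; the bar gives mean and SD). The brightest Creb5 probe set, 1389761_at, is not drawn. On the called probe sets of Ppm1k, Creb5, Snx10, Dgki and Akr1b1 the lines do not overlap, and the second Snx10 probe set, 1383585_s_at, is turned the other way (-0.34, not called).

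The unnamed probe sets held the 2 lowest differences of all those called. Probe set 1395714_at lay between 7.23 and 7.73 in congenic animals (median 7.51) and between 11.49 and 11.99 in NP animals (median 11.77). It fell by 4.23 ± 0.09 on the log2 scale (SE, 18.7-fold lower, adjusted p = 1.16e-14). Probe set 1391305_at lay between 6.37 and 7.12 in congenic animals and between 9.51 and 9.90 in NP animals, and fell by 2.96 ± 0.10 (7.79-fold lower, adjusted p = 8.27e-12). For both, all congenic animals were close to or under the signal limit of 7.68, a percentile rather than a background level, and whether these folds are lower bounds was not tested. Both probe sets reached that limit only through the NP animals. Their congenic means over the regions were 7.21 to 7.60 for 1395714_at and 6.76 to 7.60 for 1391305_at.

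Among the unnamed probe sets that were higher, 1378742_at ranged from 8.60 to 8.76 in congenic animals and from 7.76 to 8.41 in NP animals. It was higher by 0.52 ± 0.09 log2 units (SE, 1.43-fold, adjusted p = 0.0264), a call that was lost in 8 of the 12 fits without 1 animal, where adjusted p reached 0.106. Probe set 1382755_at ranged from 11.51 to 11.97 in congenic animals and from 11.04 to 11.34 in NP animals. It was higher by 0.51 ± 0.07 log2 units (SE, 1.43-fold, adjusted p = 0.00549).

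Lines without overlap were found for all 12 called probe sets and for 36 others. In all, 48 of the 18625 probe sets (0.258%) had every congenic animal above or below every NP animal, 19 above and 29 below. Of these 48, 10 belonged to chromosome 4 genes, 23 to genes of other chromosomes and 15 to no single gene. That is 1.24% of the 806 chromosome 4 probe sets and 0.175% of the 13179 on other chromosomes.

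Chromosome 4 differed from other chromosomes in the share of small p as well. An unadjusted p under 0.05 was found for 905 of 18625 probe sets (4.86%), 315 higher (1.69%) and 590 lower (3.17%) in congenic rats. On chromosome 4 the share was 8.68% (70 of 806 probe sets, 32 higher and 38 lower). Each of the other 20 chromosomes with at least 100 probe sets had a share between 3.66% and 6.75%. The excess of lower values over all probe sets was absent without the array of congenic animal 4, when 566 were higher and 519 lower.

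Along the gene order of the GRCr8 assembly, the called genes followed each other as Akr1b1, Dgki, Snx10, Creb5 and Ppm1k, at places 148, 160, 215, 220 and 245 of the 590 measured chromosome 4 genes. The run from Akr1b1 to Ppm1k holds 98 genes. Both its ends are genes called in this comparison, and it was bounded with earlier results of these animals known. Its count of small p is therefore partly fixed by that choice and only describes the run. By the brightest probe set of each gene, 21 of the 98 had an unadjusted p under 0.05 (9 higher and 12 lower). Such a p was found for 22 of the 492 other chromosome 4 genes and 430 of 9788 genes not placed on the chromosome. Under this rule Snx10 was counted as lower (-0.34 on 1383585_s_at), opposite to its called probe set, and Creb5 was not among the 21. Higher and lower genes lay among each other within the run.

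The 3 measured genes on each side of Ppm1k, Snx10 and Akr1b1 included no called one besides these. Around Ppm1k, the 6 measured neighbours Herc3, Abcg2, Pyurf, Lancl2, Nap1l5 and Vopp1 lay between -0.12 and 0.01, the lowest being Vopp1. Abcg2, an efflux transporter of the blood-brain barrier, lay at -0.06. Around Snx10, Osbpl3 lay at -0.09, Npvf, a neuropeptide gene, at 0.05, Skap2 at -0.17, Hibadh, another enzyme of valine breakdown, at -0.07 and Tax1bp1 at -0.02. Around Akr1b1, Chchd3 lay at -0.21 and Plxna4, a semaphorin receptor subunit, at -0.18, while Slc35b4 lay at 0.01, Bpgm at 0.09 and Cald1 at -0.14.

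**Figure D3:**
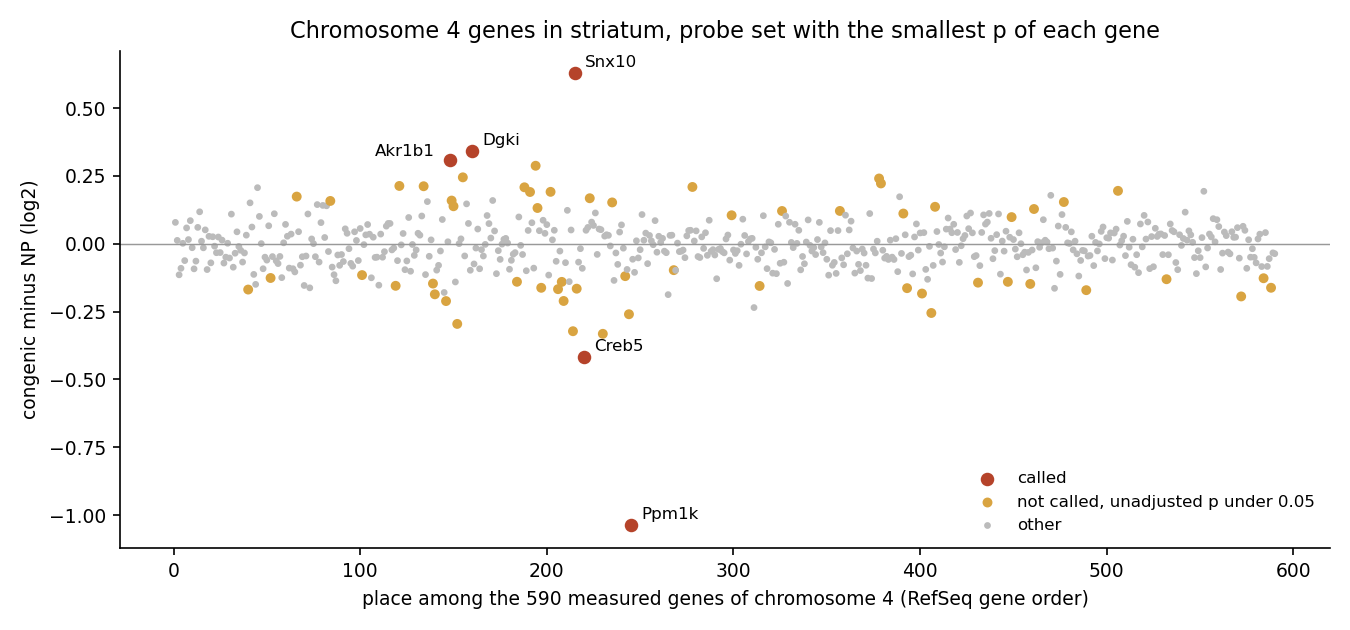
Difference between the lines in striatum (congenic minus NP, log2 units) for the 590 measured genes of chromosome 4 in their RefSeq order, by the probe set with the smallest p of each gene. The called genes Akr1b1, Dgki, Snx10, Creb5 and Ppm1k lie between places 148 and 245, with higher and lower genes side by side; choosing the smallest p widens the scatter of genes with several probe sets.

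Several chromosome 4 genes that earlier results of these animals had named came close to the threshold in striatum or lay well short of it. Hnrnpa2b1, an RNA-binding protein of splicing and RNA transport, is the neighbour of Snx10. Its probe set 1378543_at ranged from 8.46 to 8.66 in congenic animals and from 8.71 to 9.04 in NP animals, with a difference of -0.32 ± 0.06 (SE, adjusted p = 0.0615). The other 3 Hnrnpa2b1 probe sets lay between -0.01 and 0.01, so the separation was seen on 1 of 4.

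Wdr91, a regulator of endosome maturation, also separated the lines, from 8.16 to 8.43 in congenic animals and from 8.49 to 8.68 in NP animals (-0.30 ± 0.06, adjusted p = 0.0857). With array weights both Hnrnpa2b1 (adjusted p = 0.0281) and Wdr91 (adjusted p = 0.00973) were called. The zinc finger gene Zfp956 lay at 0.29 (adjusted p = 0.357), Stmp1, a short mitochondrial protein, at 0.24 and -0.12 on its 2 probe sets, and Ggct, an enzyme of glutathione turnover, at -0.33 (adjusted p = 0.516). These 3 overlapped between the lines. Repin1 (0.19, adjusted p = 0.669) did not overlap and was not called.

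The remaining genes of that earlier list were farther from the threshold. Magi1 lay at 0.22 on its probe set with the smallest p, Pdia4 at 0.19, Fam180a at 0.15, Pot1 at -0.15 and Cntnap2 at -0.10. Sos1, which lies on chromosome 6, lay at 0.20 (adjusted p = 0.800). Npy, the chromosome 4 gene of neuropeptide Y, ranged from 12.09 to 12.27 in congenic animals and from 12.21 to 12.31 in NP animals. The lines overlapped, and the difference was -0.07 ± 0.04 (SE, unadjusted p = 0.135, adjusted p = 0.988). Its receptor genes Npy1r and Npy5r lay at -0.04 and -0.01.

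Genes that define the striatum were not called. Of the 20 medium spiny neuron markers, 18 lay above 0, with a median of 0.08 and 1 unadjusted p under 0.05, while 42.5% of all 10378 genes lay above 0. The highest was Adora2a, an adenosine receptor of neurons with the D2 receptor, with congenic animals from 10.31 to 11.00 (median 10.54) and NP animals from 9.99 to 10.60 (median 10.18). It overlapped and had a difference of 0.33 ± 0.12 (SE, adjusted p = 0.988). Gnal, a G protein subunit that acts with the D1 receptor in striatum, lay at 0.15, Penk at 0.11, Drd2 at 0.12 and Drd1 at 0.09.

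The difference between the lines in the level of the marker list changed with the range of animal numbers. The mean level of the 20 markers lay between 11.73 and 12.42 in congenic animals and between 11.69 and 12.29 in NP animals. Animals 1 to 8 (4 per line) differed by -0.15 and animals 9 to 12 (2 per line) by 0.55. In animals 1 to 8 the lowest level was that of congenic animal 4 (11.73). Congenic animals 1 to 3 lay at 12.08 to 12.10 and NP animals 5 to 8 at 12.05 to 12.29. Adora2a differed by 0.09 in animals 1 to 8 and by 0.81 in animals 9 to 12. The labels do not say whether these number ranges were processed separately. Markers of cortex, which borders the striatum, overlapped between the lines: the 13 cortical excitatory neuron markers had a mean level of 10.72 to 10.88 in congenic and 10.69 to 10.96 in NP animals.

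Other signalling systems of the striatum held no called gene. In the list of dopamine signalling, 12 of 15 genes lay above 0 (median 0.05), none with an unadjusted p under 0.05. The mean level of the dopamine list differed by -0.06 in animals 1 to 8 (4 per line) and by 0.27 in animals 9 to 12 (2 per line). Its sign thus turned between the number ranges. In animals 1 to 8 the lowest level was that of congenic animal 4 (10.92). Congenic animals 1 to 3 lay at 11.11 to 11.12 and NP animals 5 to 8 at 11.08 to 11.20. In the opioid and tachykinin system 8 of 10 lay above 0 (median 0.09), a list that shares Penk, Pdyn and Tac1 with the spiny neuron markers. Its mean level differed by 0.00416 in animals 1 to 8 and by 0.18 in animals 9 to 12. Of 16 genes of the GABA system 1, the receptor subunit Gabra3, had an unadjusted p under 0.05 (0.15). Over all 10378 genes 4.56% had such a p, and 42.5% lay above 0. Of 24 glutamate receptors and transporters the lowest p was that of Grm2, a presynaptic receptor (-0.25, adjusted p = 0.988).

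Immediate early genes, which neurons switch on within minutes of activity, lay lower on average in congenic striatum, and none was called. Of 11 measured, 10 lay below 0, the median was -0.17, and 4 had an unadjusted p under 0.05. Over all 10378 genes 42.5% lay above 0, the median was -0.01, and 4.56% had such a p. Fos ranged from 8.54 to 10.19 in congenic animals (median 9.65) and from 9.44 to 10.27 in NP animals (median 10.09), a difference of -0.47 ± 0.20 (SE, adjusted p = 0.988). Dusp1 lay at -0.38, Nr4a1 at -0.32 and Ier2 at -0.26, while Egr1, Egr2 and Egr4 lay at 0.00. All 4 genes with the small p overlapped between the lines.

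The 2 congenic animals with the highest numbers held the low end. The mean level of the 11 genes was 9.80 in congenic animal 9 and 10.05 in congenic animal 10, against 10.31 to 10.45 in congenic animals 1 to 4. In NP animals it was 10.13 in animal 11, 10.43 in animal 12 and 10.43 to 10.58 in animals 5 to 8. The difference between the lines was -0.09 in animals 1 to 8 and -0.36 in animals 9 to 12.

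**Figure D4:**
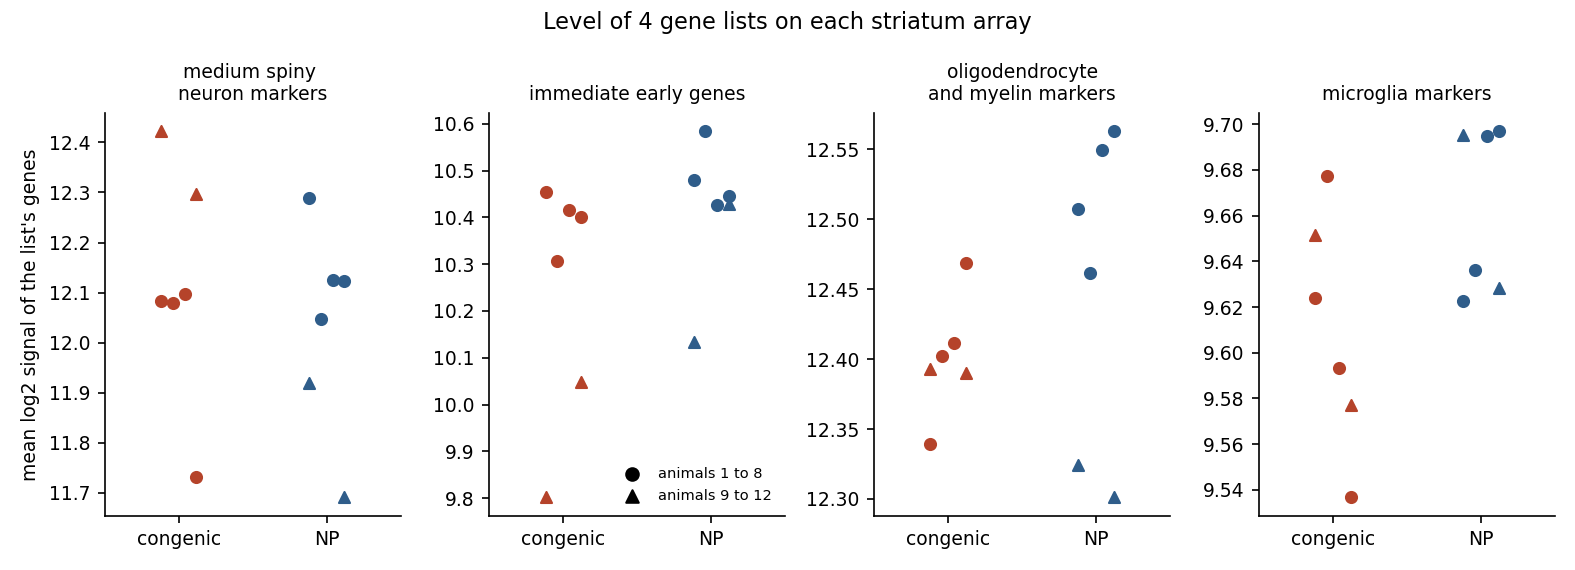
Mean log2 signal of the genes of 4 lists on each striatum array (congenic red and NP blue; circles, animals 1 to 8; triangles, animals 9 to 12). The lines overlap in all 4 lists, and congenic animals 9 and 10 have the highest marker levels of medium spiny neurons (12.42 and 12.30) and the lowest immediate early gene levels of all 12 animals (9.80 and 10.05).

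No glial marker was called. Of 11 oligodendrocyte and myelin genes 10 lay below 0 (median -0.03), the lowest being Ermn (-0.18), and of 11 microglia genes 10 lay below 0 (median -0.04), the lowest p being that of P2ry12 (-0.12). Of 10 astrocyte genes 8 lay above 0 (median 0.02), with Gfap at -0.15. Over all genes 42.5% lay above 0, with a median of -0.01. The mean level of the oligodendrocyte and myelin genes differed by -0.11 in animals 1 to 8 and by 0.08 in animals 9 to 12, and that of the microglia genes by -0.05 in both ranges. The mean level of the microglia genes ranged from 9.54 to 9.68 in congenic animals and from 9.62 to 9.70 in NP animals.

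Among genes not called, the largest differences with an unadjusted p under 0.05 stood in both directions. Besides Adora2a, Zfp956 and Stmp1, the highest were Kcnj4, an inward rectifier potassium channel (0.32), Pbx2, a homeobox cofactor (0.26), Kcnab2, a potassium channel subunit (0.26), Klhl40 (0.25) and Dab1, which transmits the reelin signal (0.24). Besides Fos, Dusp1, Nr4a1, Ggct and Hnrnpa2b1, the lowest were Nsmce3 (-0.34), Psmc6, a proteasome subunit (-0.31), and Klhl15 (-0.31). Of these 8, only Kcnab2 had no overlap between the lines, from 9.40 to 9.91 in congenic and from 9.17 to 9.38 in NP animals.

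The striatal differences recurred in part in the other 4 regions of the same animals. Of the 12 called probe sets, 10 had the same sign in all 4 other regions, and 9 were called in at least 1 of them. The same animals gave all regions, so the regions are not independent. The exceptions in sign were Snx10 (-0.07) and 1382755_at (-0.16), both in accumbens, where 2 arrays stood apart from their labelled region. Called probe sets over all 18625 were 10 in frontal cortex (0.0537%), 6 in amygdala (0.0322%), and 1 each in accumbens and hippocampus (0.00537%).

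Creb5 and Dgki were called in striatum and in none of the other regions. For Creb5 the other differences lay between -0.45 in accumbens and -0.26 in hippocampus, around the striatal -0.42. For Dgki they lay between 0.12 in hippocampus and 0.31 in frontal cortex, against 0.34 in striatum. The test of striatum against the mean of the other regions gave -0.04 ± 0.12 for Creb5 (SE, unadjusted p = 0.721) and 0.12 ± 0.08 for Dgki (unadjusted p = 0.141), so a striatal difference from elsewhere was not shown for either. The second Creb5 probe set, 1378645_at, lay at -0.38 in striatum and between -0.16 and -0.11 elsewhere (-0.25 ± 0.17, unadjusted p = 0.139).

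Across all 18625 probe sets the same test called 0 (0%), with 288 at an unadjusted p under 0.05 (1.55%). Smallest in p were 5 genes, namely Dok3, an adaptor of immune receptor signalling (striatum minus other regions 0.24 ± 0.06), Nfil3, a circadian transcription repressor (-0.30 ± 0.08), Card19 (0.19 ± 0.05), Elmod3 (0.19 ± 0.06) and Elf2 (-0.26 ± 0.08), each with an adjusted p of 1.00 and overlapping lines in striatum. Leaving out the 7 arrays of other regions that stood apart from their labels again called 0, with 1037 at an unadjusted p under 0.05 (5.57%). With those 7 arrays kept in, the striatal difference minus that elsewhere was 0.23 ± 0.20 for Ppm1k (SE, unadjusted p = 0.258) and 0.09 ± 0.05 for Akr1b1 (unadjusted p = 0.0813). The values for Creb5 and Dgki given above come from the same fit, where the share of small p was the lower one.

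**Figure D5:**
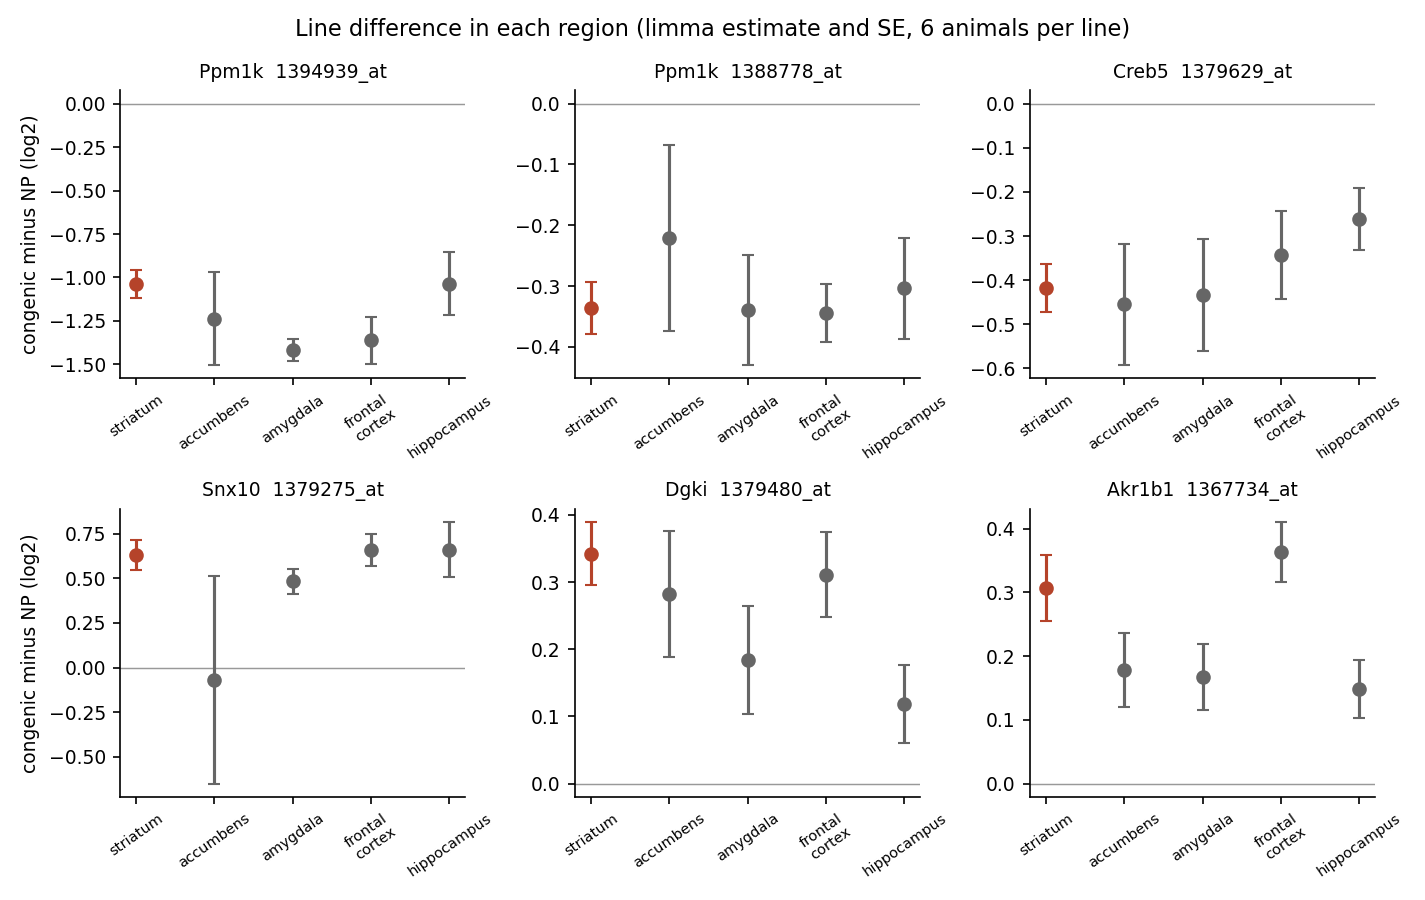
Difference between the lines (congenic minus NP, log2 units, limma estimate and SE, 6 animals per line) in striatum (red) and the other regions (grey) for the called probe sets with a gene name. Ppm1k 1394939_at lies below 0 in all 5 regions, from -1.42 in amygdala to -1.03 in hippocampus; the accumbens value of Snx10 (-0.07) has the widest error.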

How the data were processed

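Total RNA of each rat was labelled with biotin and hybridized separately to an Affymetrix rat array, per the labels' protocols. The authors deposited log2 values for 31099 probe sets on 60 arrays; summarization, background correction and normalization are not given in the sources used here. Left out were 57 control probe sets. Probe sets whose mean over all arrays reached the 40th percentile (7.68) were tested, 18625 in all, of which 14030 carry 1 gene symbol (10378 genes) and 4595 carry several or none. Chromosomes and gene order came from the RefSeq gene table of GRCr8, and promoters from the RefSeq promoter table of that assembly.

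Lines were compared in striatum with limma 3.58.1 (R 4.3.3, data.table version 1.17.8) on 12 arrays, congenic minus NP, 2-sided, with Benjamini-Hochberg adjustment. Striatum was set against the mean of the other regions on 60 arrays with the animal as a fixed block. Labels tie equal numbers across regions to 1 animal, and deviations of striatum and another region of 1 animal correlated at a mean of 0.0491 (48 pairs), against -0.00844 for different animals (240 pairs). Arrays give no read depth, and the 6 animals per line limit the precision. Both tests were tried on simulated data of the 18625 probe sets: the striatum test recovered 50% of 50 differences of 0.25 log2 units and 98% of those of 0.5, and the test against other regions 30% and 80%. Each simulation held 50 differences of each of the sizes 0.25, 0.5, 0.75 and 1 at once, with independent normal noise. That is many more true differences than the 12 calls of the real striatum data, so the adjusted threshold was easier to pass. The shares may therefore overstate recovery in the real data. Among probe sets simulated with no difference, the striatum test called 12 and the test against other regions 8, beside those recovered.

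Named were all called genes and their other probe sets, the 2 highest and 2 lowest unnamed called probe sets, the 8 highest and 8 lowest genes not called with an unadjusted p under 0.05, up to 3 genes per list, genes that earlier results had named, neighbours of Ppm1k, Snx10 and Akr1b1, and the 5 genes with the smallest p against other regions. Members, the 29 gene lists and this rule were chosen with earlier results of these data known. Other genes of the lists were named after their values were seen. One gene of the rule was left out. Lists count 1 probe set per gene, the one with the highest mean. Alternatives covered normalization, filter, prior, threshold, array weights, blocks and leaving out each animal; a pseudocount did not apply to log2 values. Plots used Python 3.11.15, matplotlib 3.10.9, numpy 2.4.6 and pandas 2.3.3.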

Additional observations from a re-analysis of the deposited data

Results flagged for a closer look

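In 8 of 114 groups of 6 striatum values, 1 animal lay far from the other 5 by Dixon's criterion, which chance alone meets in about 5% of groups. Congenic animal 4 was such an animal for Klhl40 (9.51, the next animal at 8.94) and for 2 probe sets of Cntnap2, 1393783_at (7.31, next 7.96) and 1393410_at (9.02, next 9.30). Congenic animal 1 was high for Kcnab2 (9.91, next 9.58), and congenic animal 3 was low for the Hnrnpa2b1 probe set 1398883_at (12.20, next 12.29). NP animal 11 was low for the Magi1 probe set 1384504_at (7.91, next 8.14) and for the mean level of the immediate early genes (10.13, next 10.43). NP animal 7 was low for the Cntnap2 probe set 1393783_at (7.60, next 7.84).

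Among probe sets below the signal limit, which the comparison did not use, 4 had an adjusted p under 0.05 in limma when no limit was set. Probe set 1391945_at lay higher in congenic rats by 0.76 log2 units, 1378956_at by 0.45 and the Akr1b10 probe set 1395190_at by 0.47, and 1391721_at lay at -0.64.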

How the results depend on the processing

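The 12 calls in striatum numbered 9 to 16 with quantile normalization, median centring, other filters, another prior, array weights, a threshold of 0.1 or the animal number ranges as a block. They fell to 3 in a test against a 1.2-fold difference (0 higher, 3 lower) and to 6 (3 higher, 3 lower) when all 60 arrays were fitted together, the animal being a random replicate block; the cause was not tested. Leaving out each animal gave 9 to 13 calls, 4 to 6 higher and 5 to 8 lower. No paired analysis between the lines was possible because no animal number is shared between them. Against other regions, 0 probe sets were called in every alternative run, with 289 unadjusted p under 0.05 with no replicate block, 183 to 465 without single animals and 1037 without 7 arrays. There, 2 small differences changed sign: 1391305_at against other regions, at 0.05, was -0.13 with quantile normalization and ranged from -0.0258 to 0.16 without single animals, and Creb5 1379629_at against other regions, at -0.04, ranged from -0.0742 to 0.00446 (without congenic animal 2). The share of higher values among probe sets with an unadjusted p under 0.05 was 34.8%, and 23.4% with the 60th percentile filter, 53.7% with no filter, 47.8% in the fit of all arrays and 52.2% without congenic animal 4, where the median of branched-chain amino acid breakdown turned to 0.02. Among the called probe sets named above with their values, those of 1378742_at and Akr1b1 were each lost in 8 leave-outs. Losses in leave-outs were not tallied for the unnamed called probe sets 1378125_at and 1383058_at. In the test against a 1.2-fold difference 0 were called higher. The calls of Snx10, Dgki, Akr1b1 and the higher unnamed probe sets were thus lost there. Calls lost in the fit of all 60 arrays are not listed by name here.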
